A study of Mus musculus with 12 samples.

Results

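The 10 genes described here encode enzymes that make serine, pass its carbon into folate and charge methionine for methylation. They were taken by symbol from a table of 45777 genes and are *Phgdh*, *Psat1*, *Psph*, *Shmt1*, *Shmt2*, *Mthfd2*, *Mthfd1l*, *Mat1a*, *Mat2a* and *Gnmt*. The values come from liver RNA-seq of 12 male C57BL/6 mice aged 10 to 12 weeks, with 3 livers in each of 4 groups: WT given vehicle, WT given acetaminophen (APAP), *Gna12* KO given vehicle and *Gna12* KO given APAP. *Gna12* encodes the G protein subunit Gα12, and the WT mice were age-matched littermates of the KO mice. APAP is a painkiller that injures hepatocytes around the central vein in overdose. It was injected once at 300 mg/kg after an overnight fast, and the livers were taken 6 h later. Each mouse received vehicle or APAP, and both treatments were given in each genotype. How the *Gna12* deletion was made is not given in the sources used here.

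Serine is built from the glycolytic intermediate 3-phosphoglycerate in a short chain of reactions run by PHGDH, PSAT1 and PSPH. The SHMT enzymes, SHMT1 in the cytosol and SHMT2 in mitochondria, then cleave serine to glycine and hand its carbon to folate, and the MTHFD enzymes move that folate-bound carbon between formate and reduced forms. In a parallel cycle, the methionine adenosyltransferases MAT1A and MAT2A make S-adenosylmethionine, the methyl donor of the cell, and GNMT spends surplus S-adenosylmethionine on glycine. Adult liver is known for very high *Mat1a* and *Gnmt* and for low expression of the serine synthesis genes, and several genes of the set (*Phgdh*, *Psat1*, *Psph*, *Shmt2*, *Mthfd2*) are textbook targets of the stress-responsive transcription factor ATF4.

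The promoter windows of 4 members are shown because they belong to the 3 genes that passed the test in WT livers (*Phgdh*, *Psat1*, *Mthfd2*) and to *Shmt1*, which moved the opposite way. Each holds 300 bases of RefSeq sequence (GRCm38.p6, minus strand, written 5′ to 3′), from 250 bases before the transcription start to 50 after it. The *Psat1* window lies at chr19:15925010-15925309, upstream of a further RefSeq start of the gene. The others lie at chr3:98339920-98340219 (*Phgdh*), chr6:83317555-83317854 (*Mthfd2*, a start inside its longest RefSeq span) and chr11:60811216-60811515 (*Shmt1*). Capitals mark matches, on either strand, to promoter elements. The box bound by NF-Y was searched as CCAAT. The GC box, bound by SP family factors, was searched as GGGCGG. The box bound by the TATA-binding protein was searched as TATAAA. The core of the antioxidant response element, bound by NRF2 and its partners, was searched as TGACNNNGC.
Phgdh: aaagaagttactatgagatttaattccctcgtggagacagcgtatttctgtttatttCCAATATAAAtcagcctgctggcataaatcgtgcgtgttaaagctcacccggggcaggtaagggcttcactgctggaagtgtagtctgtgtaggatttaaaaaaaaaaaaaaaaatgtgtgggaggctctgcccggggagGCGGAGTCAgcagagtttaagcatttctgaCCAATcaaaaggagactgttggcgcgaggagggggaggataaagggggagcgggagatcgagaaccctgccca
Psat1: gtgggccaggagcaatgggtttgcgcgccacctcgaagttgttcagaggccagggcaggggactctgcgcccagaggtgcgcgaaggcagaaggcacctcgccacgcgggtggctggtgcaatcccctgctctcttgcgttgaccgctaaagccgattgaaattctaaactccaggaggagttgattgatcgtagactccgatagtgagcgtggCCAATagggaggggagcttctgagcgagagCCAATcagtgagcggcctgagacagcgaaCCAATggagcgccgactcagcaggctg
Mthfd2: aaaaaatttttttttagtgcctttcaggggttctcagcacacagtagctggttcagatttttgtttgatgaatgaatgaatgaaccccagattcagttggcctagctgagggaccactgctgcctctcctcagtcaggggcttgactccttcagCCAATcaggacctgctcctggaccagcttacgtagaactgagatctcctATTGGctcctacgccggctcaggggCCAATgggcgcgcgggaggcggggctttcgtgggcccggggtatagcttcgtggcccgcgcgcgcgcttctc
Shmt1: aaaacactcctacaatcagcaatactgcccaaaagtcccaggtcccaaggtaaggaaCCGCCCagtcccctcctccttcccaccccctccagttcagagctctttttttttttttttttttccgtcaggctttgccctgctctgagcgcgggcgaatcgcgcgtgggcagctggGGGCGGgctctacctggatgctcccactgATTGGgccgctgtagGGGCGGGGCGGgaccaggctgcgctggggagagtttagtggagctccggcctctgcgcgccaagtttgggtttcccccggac
The *Psat1* window held 3 CCAAT boxes, beginning 36 and 6 bases before the start and 24 bases after it. *Mthfd2* also held 3, beginning 96, 47 and 22 bases before the start, the middle match on the opposite strand. *Phgdh* held CCAAT boxes 193 and 23 bases before the start, of which the farther overlapped a TATA box, and an antioxidant response element core 53 bases before it. *Shmt1* held 4 GC boxes, a pair of them overlapping, and 1 CCAAT box. Over 10 windows that covered 9 members (no window was held for *Mat1a*), the CCAAT box was found for *Phgdh*, *Psat1*, *Psph*, *Shmt1*, *Mthfd2*, *Mat2a* and *Gnmt*, and 37.4% of all 32851 RefSeq windows of this length held it. The GC box was found for *Psat1* (at its further start), *Psph*, *Shmt1*, *Mthfd1l* and *Mat2a*, against 35.7% of all windows. The antioxidant response element core was found for *Phgdh* and *Psph* (12.4% of all windows), and the TATA box for *Phgdh* and *Mat2a* (13.6%). The composite element bound by C/EBP and ATF factors (TGATGNAAN, 3.95% of all windows) and the E-box (CACGTG, 7.15%) were not matched in the 10 windows, and *Shmt2* held none of the motifs searched.

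Read totals ranged from 49737950 to 69566079 per liver, and TMM scaling factors from 0.762 to 1.14. *Gna12* itself was not lower under the KO label. It stood at 66.7, 34.8 and 63.4 CPM (read counts scaled to a common depth with TMM factors) in WT livers given vehicle and at 67.2, 66.7 and 54.7 CPM in vehicle livers labelled KO. After APAP it stood at 23.3, 58.8 and 50.5 CPM in WT and at 43.3, 48.1 and 46.6 CPM under the KO label. The difference between labels (KO minus WT) was 0.19 on the log2 scale with vehicle (SE 0.24, adjusted p = 0.878) and 0.05 after APAP (SE 0.30, adjusted p = 0.993, edgeR). A gene-level count also takes reads from any part of the transcript left by a deletion, so it does not settle the genotype. The study also genotyped its mice by PCR of tail DNA and measured liver *Gna12* by qRT-PCR and Gα12 by immunoblot, and the sources used here do not say whether these assays covered the same 12 animals. The livers are called labelled KO throughout. The 8 hepatocyte markers summed to between 66603 and 137169 CPM in every liver. Over both labels 0 of them passed edgeR's test of APAP against vehicle, with 0 at an unadjusted p under 0.05 and 0 by DESeq2. In that edgeR test 14% of all genes were called higher and 11.7% lower. WT APAP replicate 1 stood apart in erythroid markers, at 17080 summed CPM against 252 to 749 in the other 11 livers.

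After APAP, transcripts of the serine synthesis genes, *Mthfd2*, *Mthfd1l* and *Mat2a* rose over all 12 livers, those of *Shmt1* and *Shmt2* fell, and *Mat1a* and *Gnmt* did not pass the test. Over both genotype labels (6 APAP against 6 vehicle livers, edgeR quasi-likelihood test, adjusted p under 0.05 called), 6 of 10 members were higher, against 14% of the 16112 genes tested. Lower members numbered 2 of 10, against 11.7% of genes. The median log2 fold change was 1.15 over the members and 0.0072 over all genes tested. In 7 of 10 members the APAP and vehicle livers did not overlap in CPM, against 12.6% of genes, and the exceptions were *Mthfd1l*, *Mat1a* and *Gnmt*. The deposited TPM divide by transcript length and, unlike these CPM, carry no TMM factor. In TPM *Shmt1*, *Shmt2* and *Mat2a* overlapped, whereas *Mthfd1l* did not. The 2262 genes called higher and 1880 called lower became 1938 and 2455 on quantile-normalized log2(TPM + 1), so that the share called higher moved from 54.6% to 44.1%, while the members' counts of 6 and 2 were the same on both scales. These are changes of bulk liver RNA, in which fewer cells of a type and less RNA per cell cannot be told apart.

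Within WT livers (3 against 3), 3 of 10 members passed as higher, *Phgdh*, *Psat1* and *Mthfd2*, against 1.62% of 15693 genes. As lower, 0 of 10 passed edgeR's test, against 0.427% of genes, although *Shmt1* and *Shmt2* had unadjusted p-values under 0.05 and DESeq2 called both. The 2 groups did not overlap in CPM in 9 of 10 members, *Gnmt* being the exception, against 24.8% of genes. In TPM *Shmt1*, *Shmt2* and *Mat1a* overlapped as well. In livers labelled KO (3 against 3), 6 members passed as higher, against 13% of 15665 genes, and *Shmt1* alone passed as lower, against 9.6%. There 8 of 10 members did not overlap in CPM, against 42.9% of genes, and of these *Shmt2* overlapped in TPM. The median log2 fold change of the members was 1.14 in WT (0.027 over all genes) and 1.17 under the KO label (-0.022 over all genes). The number of higher members in WT depended on single livers. It was 1 when vehicle replicate 1, vehicle replicate 3 or APAP replicate 3 was left out, 2 when APAP replicate 1 was, and 6 when APAP replicate 2 was.

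**Figure D1:**
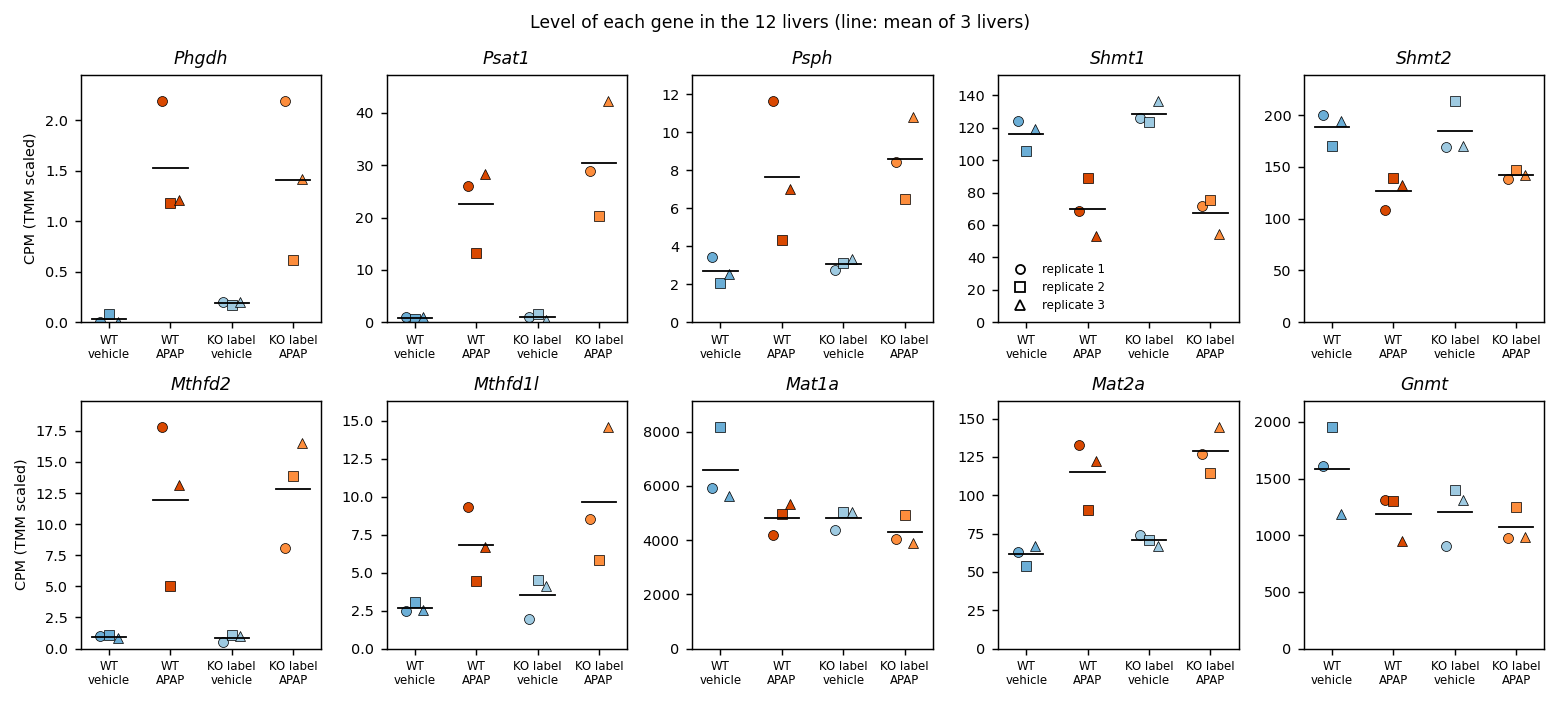
Level of each of the 10 genes in CPM (linear axis from 0, a scale of its own in each panel) in the 12 livers. Points are livers, shaped by replicate number, and lines are means of 3. The APAP livers lie above the vehicle livers of the same label for *Phgdh*, *Psat1*, *Psph*, *Mthfd2*, *Mthfd1l* and *Mat2a* and below them for *Shmt1* and *Shmt2*.

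*Psat1* (chr19:15905123-15925059), which encodes the transaminase of serine synthesis, had the largest well-counted increase among the members. It stood at 0.977, 0.672 and 0.919 CPM in WT livers given vehicle and at 26.1, 13.2 and 28.3 CPM in WT livers given APAP. Under the KO label it stood at 1.04, 1.62 and 0.354 CPM with vehicle and at 29.0, 20.3 and 42.3 CPM after APAP. The lowest APAP liver was thus above the highest vehicle liver, with 984 to 2944 reads in the APAP livers against 16 to 83 in the vehicle livers. Over both labels the increase was 28.2-fold, or 4.82 on the log2 scale (SE 0.34, adjusted p = 2.01e-06). In WT it was 4.73 (SE 0.37, adjusted p = 0.00384) and under the KO label 4.92 (SE 0.47, adjusted p = 0.000622). *Psat1* passed in these 3 comparisons under every alternative tried and with each liver left out.

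*Phgdh* (chr3:98313171-98339969), the dehydrogenase that commits 3-phosphoglycerate to serine, was the least abundant member and rose from near absence. Its read counts were 0, 4 and 0 in WT livers given vehicle and 112, 88 and 76 in WT livers given APAP. In livers labelled KO they were 12, 9 and 9 with vehicle and 126, 39 and 99 after APAP. No vehicle liver reached the lowest APAP liver. Summed over livers and divided by total reads scaled with TMM factors, APAP was 55.2 times vehicle in WT (95% interval 21.3 to 204). Under the KO label it was 7.23 times vehicle (4.94 to 10.9), and both intervals cover counting error only. The fitted log2 change was 3.90 over both labels (SE 0.63, adjusted p = 0.000756), 5.73 in WT (SE 0.96, adjusted p = 0.0311) and 2.87 under the KO label (SE 0.51, adjusted p = 0.00654). The WT value rests on 4 vehicle reads, all in replicate 2. Without that liver the fitted value was 9.49, which depends on the prior count, and the WT call was lost without vehicle replicate 1 (adjusted p = 0.123), vehicle replicate 3 (0.122), APAP replicate 1 (0.0670) or APAP replicate 3 (0.109).

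*Psph* (chr5:129765558-129787443), the phosphatase of the last step, rose less. It stood at 3.44, 2.06 and 2.52 CPM in WT livers given vehicle and at 11.6, 4.34 and 7.01 CPM after APAP. Livers labelled KO stood at 2.77, 3.12 and 3.34 CPM with vehicle and at 8.45, 6.47 and 10.8 CPM after APAP. Vehicle and APAP livers did not overlap, and the increase over both labels was 2.84-fold (log2 1.50, SE 0.23, adjusted p = 0.000587). The log2 change was 1.49 in livers labelled KO alone (SE 0.21, adjusted p = 0.00296), and in WT alone it was 1.54 (SE 0.40), which missed the threshold (adjusted p = 0.102). Without WT APAP replicate 2, the lowest APAP liver, the WT change was 1.81 (adjusted p = 0.0484).

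**Figure D2:**
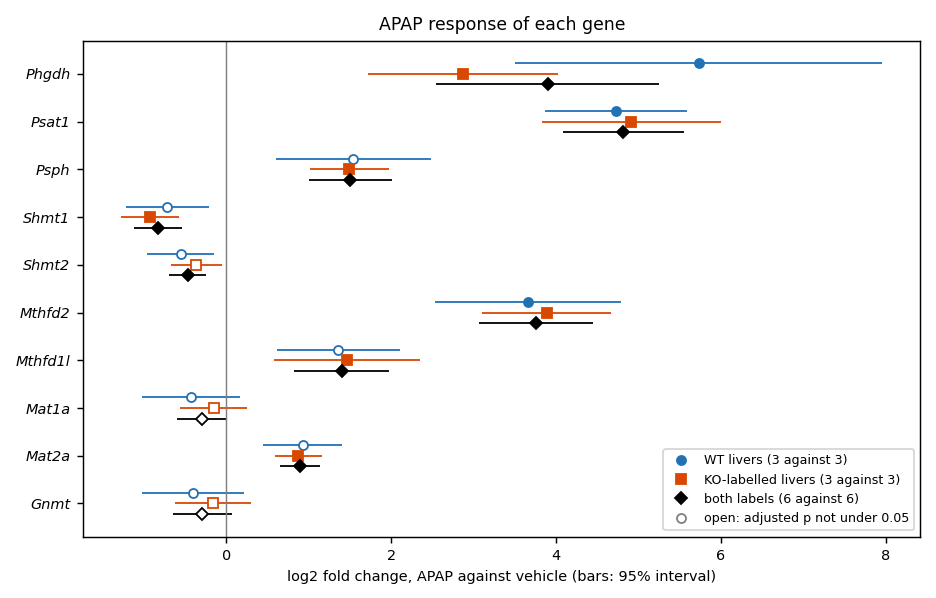
Log2 fold change of each gene, APAP against vehicle, in WT livers (circles), livers labelled KO (squares) and both together (diamonds), with 95% intervals. Filled symbols had an adjusted p under 0.05. *Psat1*, *Phgdh* and *Mthfd2* lie above 2 in all 3 fits, and the intervals of *Mat1a* and *Gnmt* include 0.

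Among the folate enzymes, *Mthfd2* (chr6:83305704-83326011), a mitochondrial dehydrogenase and cyclohydrolase otherwise prominent in embryonic and dividing cells, rose most. It stood at 0.996, 1.05 and 0.839 CPM in WT livers given vehicle and at 17.8, 5.01 and 13.1 CPM after APAP. Under the KO label it stood at 0.554, 1.11 and 0.973 CPM with vehicle and at 8.12, 13.8 and 16.5 CPM after APAP. The lowest APAP liver, WT replicate 2, was still above every vehicle liver. The increase was 13.5-fold over both labels (log2 3.76, SE 0.32, adjusted p = 7.81e-06), with log2 changes of 3.66 in WT (SE 0.48, adjusted p = 0.0148) and 3.89 under the KO label (SE 0.34, adjusted p = 0.000437). In WT the call was lost without vehicle replicate 1 (adjusted p = 0.0822), vehicle replicate 3 (0.0812) or APAP replicate 3 (0.0791).

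*Mthfd1l* (chr10:3972892-4167081), the mitochondrial enzyme that releases formate, rose over both labels by 1.40 on the log2 scale (2.64-fold, SE 0.27, adjusted p = 0.00224). It stood at 2.48, 3.07 and 2.52 CPM in WT livers given vehicle and at 9.30, 4.42 and 6.71 CPM after APAP. Livers labelled KO stood at 1.97, 4.52 and 4.09 CPM with vehicle and at 8.50, 5.85 and 14.6 CPM after APAP. Within each label APAP lay above vehicle, but WT APAP replicate 2 was below KO vehicle replicate 2. The change was 1.36 in WT (SE 0.32, adjusted p = 0.0791) and 1.46 under the KO label (SE 0.39, adjusted p = 0.0296). That last call was lost when KO vehicle replicate 1 (adjusted p = 0.0632), 2 (0.0591) or 3 (0.0739) was left out, and likewise for KO APAP replicate 1 (0.0583) or 3 (0.0944).

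*Shmt1* (chr11:60788897-60811265), the cytosolic hydroxymethyltransferase, fell. It stood at 124, 105 and 119 CPM in WT livers given vehicle and at 68.5, 88.9 and 53.0 CPM after APAP. Under the KO label it stood at 126, 124 and 136 CPM with vehicle and at 71.8, 75.7 and 54.3 CPM after APAP. In CPM every APAP liver was below every vehicle liver, whereas in TPM the ranges overlapped (75.0 to 122 with vehicle, 33.7 to 80.7 after APAP). *Shmt1* was 1.78-fold lower over both labels (log2 -0.83, SE 0.13, adjusted p = 0.000740). The log2 change was -0.92 under the KO label (SE 0.15, adjusted p = 0.00538) and -0.72 in WT (SE 0.22, adjusted p = 0.139).

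*Shmt2* (chr10:127517123-127522444), its mitochondrial counterpart, fell by less, to 1.38-fold lower over both labels (log2 -0.47, SE 0.10, adjusted p = 0.00549). It stood at 200, 170 and 195 CPM in WT livers given vehicle and at 109, 140 and 133 CPM after APAP. Livers labelled KO stood at 170, 214 and 170 CPM with vehicle and at 138, 147 and 142 CPM after APAP. The groups did not overlap in CPM but did in TPM (98.6 to 154 with vehicle, 47.9 to 119 after APAP). Neither label passed on its own (adjusted p = 0.156 in WT and 0.0843 under the KO label). The mitochondrial arm of folate metabolism thus held a member that fell (*Shmt2*) beside members that rose (*Mthfd2*, *Mthfd1l*).

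*Mat2a* (chr6:72432796-72439556), the methionine adenosyltransferase of extrahepatic and growing tissue, rose, whereas the change of *Mat1a*, the adult liver form, missed the threshold. *Mat2a* stood at 63.3, 53.8 and 67.2 CPM in WT livers given vehicle and at 133, 90.5 and 123 CPM after APAP. The livers labelled KO had levels of 73.9, 70.7 and 67.2 CPM with vehicle and 127, 115 and 144 CPM after APAP. In CPM every APAP liver was above every vehicle liver, whereas in TPM the ranges overlapped (26.5 to 48.3 with vehicle, 43.6 to 88.5 after APAP). *Mat2a* was 1.85-fold higher over both labels (log2 0.89, SE 0.11, adjusted p = 0.000176). It passed under the KO label (log2 0.88, SE 0.13, adjusted p = 0.00320) and missed the threshold in WT (log2 0.92, SE 0.21, adjusted p = 0.0710). Without WT APAP replicate 2 the WT change passed (1.06, adjusted p = 0.0427).

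*Mat1a* (chr14:41105012-41124428) stood at 5923, 8154 and 5615 CPM in WT livers given vehicle and at 4177, 4972 and 5343 CPM after APAP. Livers labelled KO stood at 4387, 5033 and 5018 CPM with vehicle and at 4045, 4936 and 3908 CPM after APAP. The log2 difference over both labels was -0.30 (95% interval -0.60 to 8e-04, adjusted p = 0.135). In WT the APAP livers lay below the vehicle livers without overlap in CPM, with a log2 difference of -0.43 (SE 0.25, adjusted p = 0.418). These WT groups overlapped in TPM. Under the KO label the groups overlapped, with a difference of -0.15 (SE 0.18, adjusted p = 0.570).

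*Gnmt* (chr17:46725664-46729211), the glycine methyltransferase that regulates the ratio of S-adenosylmethionine to its product, stood at 1615, 1952 and 1188 CPM in WT livers given vehicle and at 1310, 1304 and 950 CPM after APAP. Livers labelled KO stood at 909, 1401 and 1312 CPM with vehicle and at 977, 1246 and 983 CPM after APAP. The groups overlapped under both labels. The log2 difference over both labels was -0.29 (95% interval -0.65 to 0.064, adjusted p = 0.219), an interval that includes 0.

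The enzymes could be ranked against one another in TPM (transcript abundance scaled to depth), which divides by transcript length. In every group *Mat1a* and *Gnmt* came highest and overlapped each other. *Mat1a* stood at 2973 ± 479 TPM in WT livers given vehicle and 2152 ± 796 TPM after APAP, and at 2299 ± 305 and 2373 ± 261 TPM under the KO label (mean ± SD, n = 3). *Gnmt* stood at 2410 ± 565 and 1715 ± 552 TPM in WT and at 1900 ± 318 and 1969 ± 233 TPM under the KO label. *Shmt2* and *Shmt1* followed with vehicle, at 129 ± 21.2 and 89.7 ± 14.7 TPM in WT, where they did not overlap, and at 133 ± 29.8 and 104 ± 16.4 TPM under the KO label, where they did.

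*Mat2a* ranked the fifth with vehicle, at 32.0 ± 4.90 TPM in WT and 38.8 ± 9.28 TPM under the KO label. After APAP it ranked the fourth, at 54.9 ± 11.1 TPM in WT and 79.7 ± 10.9 TPM under the KO label, overlapping *Shmt1* in both (52.4 ± 24.9 and 62.4 ± 11.0 TPM). *Psph* headed the low-abundance members with vehicle, at 2.61 ± 0.920 TPM in WT and 3.15 ± 0.312 TPM under the KO label. *Psat1* moved from 0.592 ± 0.172 to 14.9 ± 5.58 TPM in WT and from 0.784 ± 0.531 to 26.7 ± 9.64 TPM under the KO label, and thereby ranked above *Psph* after APAP. *Mthfd2* moved from 0.676 ± 0.115 to 7.83 ± 3.07 TPM in WT and from 0.643 ± 0.188 to 11.7 ± 3.65 TPM under the KO label, and after APAP it overlapped *Psph* under both labels. *Phgdh* remained the lowest of the 10 in all 4 groups, at 1.13 ± 0.0716 TPM in WT and 1.45 ± 0.855 TPM under the KO label after APAP.

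Ratios between paired enzymes within a liver do not depend on how libraries were scaled, and are given as descriptions. *Mat2a* amounted to 0.767 to 1.93 TPM per 100 TPM of *Mat1a* in the 6 vehicle livers and to 2.07 to 4.15 in the 6 APAP livers, with no overlap. *Mthfd1*, the cytosolic enzyme that joins the activities which the mitochondrion splits between *Mthfd2* and *Mthfd1l*, served as the denominator for those 2 members. *Mthfd2* per 100 *Mthfd1* went from 0.499 to 1.07 in vehicle livers to 7.32 to 33.8 in APAP livers, and *Mthfd1l* per 100 *Mthfd1* from 1.08 to 2.56 to a range of 3.63 to 16.3. *Mthfd1* itself fell, so both sides of these ratios moved. *Shmt1* per 100 *Shmt2* spanned 65.1 to 90.8 in vehicle livers and 43.0 to 72.0 in APAP livers. These 2 ranges overlapped: WT APAP replicates 1 and 2 lay at 70.4 and 72.0, above the 3 WT vehicle livers (69.6 to 69.9), and replicate 3 at 45.2.

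**Figure D3:**
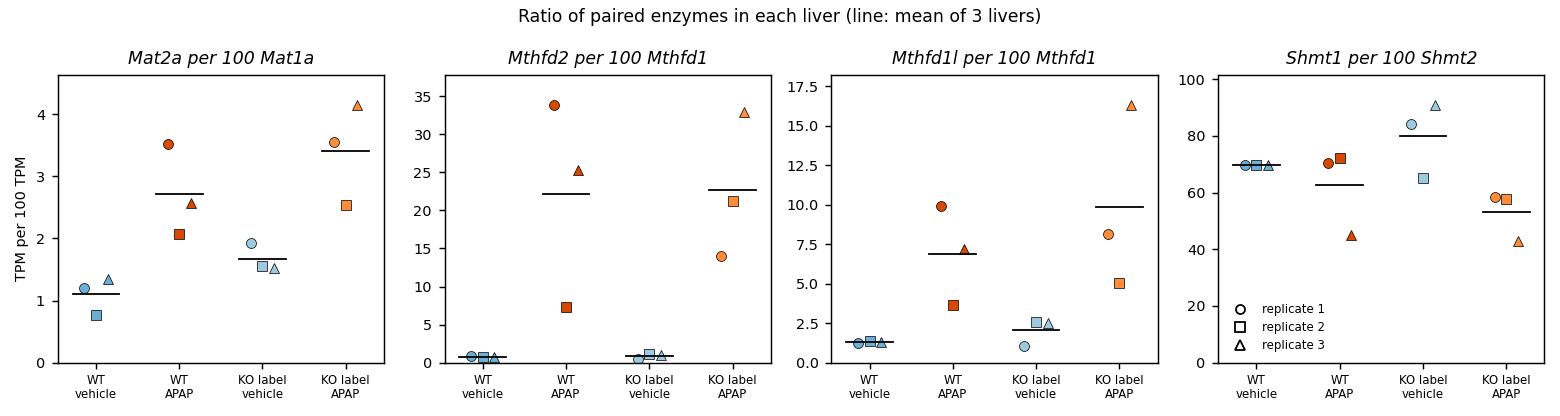
TPM of *Mat2a* per 100 TPM of *Mat1a*, *Mthfd2* and *Mthfd1l* per 100 *Mthfd1*, and *Shmt1* per 100 *Shmt2* in each liver (points by replicate, lines are means of 3, axes from 0). The first 3 ratios are higher in all 6 APAP livers than in any vehicle liver. The last overlaps, with WT APAP replicates 1 and 2 at 70.4 and 72.0.

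The APAP livers differed in how far they moved. In CPM, among the 8 members called over both labels, WT APAP replicate 2 had the smallest difference from the WT vehicle mean in 8 of 8. KO APAP replicate 2 had the smallest in 7 of 8 (all but *Mthfd2*). The largest differences in CPM were in WT APAP replicate 1 and KO APAP replicate 3, with 6 of 8 members each. These ranks depended on the scale. WT APAP replicate 1 had the lowest TMM factor of all livers (0.762), and TPM carry no such factor. In TPM the smallest WT response was in replicate 1 for *Mat2a* (43.6, against 55.1 and 65.9) and in replicate 3 for *Phgdh* (1.05, against 1.18 and 1.16). Under the KO label it was in replicate 1 for *Shmt1* and *Shmt2*. The largest WT response in TPM was in replicate 3 for *Psat1*, *Mthfd2*, *Mthfd1l* and *Mat2a*. For *Psph* the difference in log2(CPM + 0.1) was 0.71 in WT replicate 2 against 2.11 in WT replicate 1. For *Mthfd2* it was 2.27 against 4.08 in the same livers. The summed level of pericentral hepatocyte markers was 4124, 4300 and 5037 CPM in WT APAP replicates 1, 2 and 3 and so highest in replicate 3. In the APAP livers labelled KO it was highest in replicate 2 (6321 CPM, against 4171 and 3831). WT APAP replicate 1 was also the liver with high erythroid markers and the highest neutrophil sum (123 CPM, against 1.10 to 20.8 in the other 11 livers, with *Mpo*, a gene of that list, at 0 in all 12). Without it, the WT log2 changes were 4.59 for *Psat1*, 3.23 for *Mthfd2* and 5.36 for *Phgdh*, of which *Psat1* (adjusted p = 0.0123) and *Mthfd2* (0.0306) still passed.

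**Figure D4:**
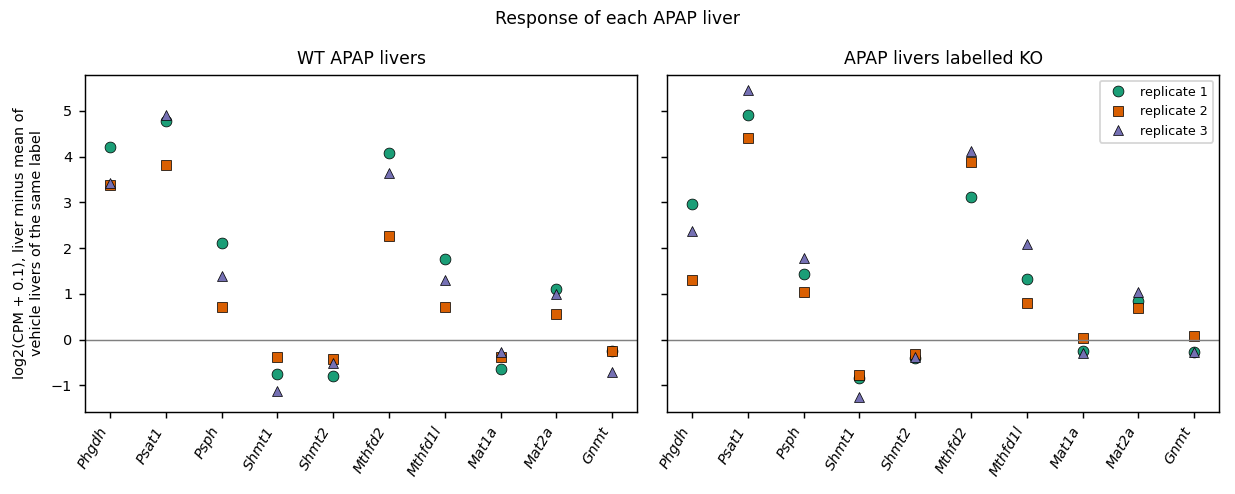
Difference of each APAP liver from the mean of the vehicle livers of its label, in log2(CPM + 0.1), for the 10 genes. Colour and shape give the replicate number. Replicate 2 of the WT livers lies nearest to 0 for all 8 genes called over both labels.

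The genotype labels were then compared, since the study asked how Gα12 bears on the injury. After APAP (KO label against WT, 3 against 3 livers), 0 of 10 members passed edgeR's test, against 0.0309% of 16174 genes, and 0 had an unadjusted p under 0.05. Their log2 differences ran from -0.18 (*Mat1a*) to 0.48 (*Mthfd1l*), and the intervals were wide: -0.38 to 1.21 for *Psat1*, -0.97 to 1.11 for *Mthfd2* and -0.33 to 0.61 for *Mat2a*. With vehicle, 0 of 9 members tested passed, against 0.0262% of 15262 genes, and 0 had an unadjusted p under 0.05. *Phgdh* was too low to be tested there. The largest vehicle difference was that of *Mat1a* (-0.45, 95% interval -0.94 to 0.047, adjusted p = 0.683). DESeq2 also called 0 members in either comparison.

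In the test of the difference between the APAP responses under the 2 labels (interaction, 12 livers), 0 of 10 members and 0% of 16509 genes passed. *Phgdh* was the only member with an unadjusted p under 0.05 (0.0232, adjusted p = 0.872). Its response under the KO label was lower by 2.86 on the log2 scale (SE 1.10), a value that rests on the same 4 reads in WT vehicle livers, and DESeq2 called 0 members. For *Psat1* the difference between responses was 0.19 (95% interval -1.19 to 1.58), for *Mthfd2* 0.23 (-1.10 to 1.56), for *Mat2a* -0.05 (-0.56 to 0.46) and for *Shmt1* -0.21 (-0.79 to 0.38). These intervals include 0, and they also leave room for differences as large as their bounds.

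The other genes of the pathway are given as counts, to be read against the 14% of all genes called higher and 11.7% called lower over both labels. By edgeR's test in WT alone, these shares were 1.62% and 0.427%. Among 19 tested folate cycle genes outside the 10, 2 were higher and 5 lower over both labels, with a median log2 change of -0.17. *Aldh1l2*, a mitochondrial enzyme that oxidises formyl-folate and was named after its value was seen, rose by 1.31 (SE 0.31, adjusted p = 0.00785). *Mthfd1* had a log2 change of -0.86 (SE 0.11, adjusted p = 0.000236), *Slc25a32*, the mitochondrial folate carrier, of -0.89, *Ftcd*, which feeds histidine carbon into folate, of -0.45, and *Slc46a1*, a folate transporter, of -0.41. In WT alone edgeR called 0 higher and 0 lower (8 of 19 had an unadjusted p under 0.05, and DESeq2 called 1 higher and 2 lower). In livers labelled KO it called 1 higher and 5 lower, where 13% of all genes were higher and 9.6% lower.

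Among 21 tested genes of the methionine cycle, methyl transfer and transsulfuration, 2 were higher and 8 lower over both labels, with a median of -0.31. *Ahcy*, which removes the inhibitory product of methyl transfer, had a log2 change of -0.92 (SE 0.21, adjusted p = 0.00731). *Bhmt2* (-0.62), *Sardh* (-0.68), *Gamt* (-0.74), *Ahcyl1* (-0.54) and *Aldh7a1* (-0.52), which act in remethylation, sarcosine oxidation, creatine synthesis and betaine supply or are related to *Ahcy*, were lower as well. The 2 higher genes, *Cbs* (0.43) and *Cdo1* (0.43), direct sulfur from homocysteine to cysteine and its oxidation, and were named after their values were seen. Among 12 tested genes of glycine and serine breakdown, 2 were higher, *Sdsl* (0.61) and *Gldc* (0.45), and 3 lower, *Glyctk* (-1.02), *Hao1* (-0.46) and *Srr* (-0.42), with a median of -0.16. In WT alone edgeR called 0 of the 21 (6 had an unadjusted p under 0.05, and DESeq2 called 0 higher and 6 lower) and 0 of the 12 (2 had an unadjusted p under 0.05, and DESeq2 called 0 higher and 1 lower). In livers labelled KO it called 0 of the 21 higher and 5 lower (DESeq2 2 and 7, unadjusted p under 0.05 in 10), and 1 of the 12 higher and 3 lower. There edgeR called 13% of all genes higher and 9.6% lower.

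ATF4 and its known targets outside the 10 genes were mostly higher. Over both labels 11 of 15 tested were higher and 1 lower, against 14% and 11.7% of all genes. Their median log2 change was 1.39. In WT 5 of 15 were higher by edgeR's test and 0 lower, against 1.62% and 0.427% of all genes (DESeq2 6 and 1, unadjusted p under 0.05 in 9). In livers labelled KO 11 of 14 were higher and 0 lower, against 13% and 9.6% of all genes (DESeq2 also 11 and 0, unadjusted p under 0.05 in 11). *Atf4* rose by 1.32 (SE 0.24, adjusted p = 0.00154), *Asns*, the asparagine synthetase, by 1.74, *Aldh18a1*, of proline synthesis, by 2.22, *Fgf21*, a stress-induced hepatokine, by 2.32, *Slc3a2*, an amino acid transporter chain, by 1.48 and *Ddit3*, which encodes CHOP, by 4.94 (SE 0.23, adjusted p = 8.2e-08). *Slc7a11*, the cystine transporter, had 0 reads in the 3 WT vehicle livers, 4 in all in the vehicle livers labelled KO and 73 to 461 in the APAP livers. The lower gene was *Vldlr* (-1.14), named after its value was seen. The list summed to 841, 564 and 1047 CPM in WT APAP replicates 1, 2 and 3, lowest in replicate 2 as the members' responses in CPM were. In the APAP livers labelled KO the sums were 511, 796 and 661 CPM, lowest in replicate 1, and in vehicle livers 163 to 333 CPM.

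**Figure D5:**
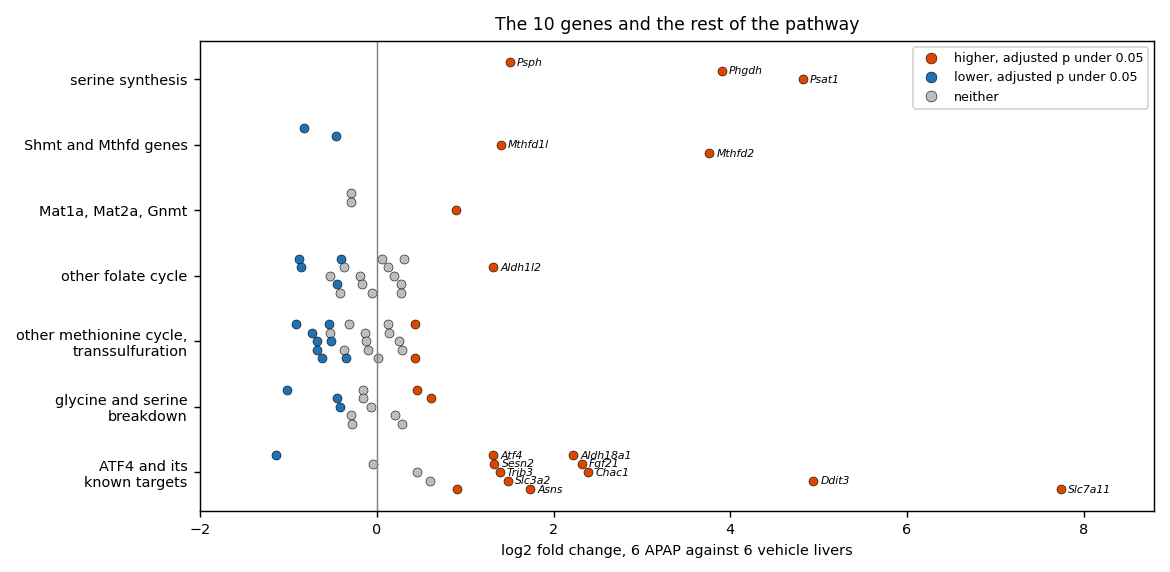
Log2 fold change over both labels (6 APAP against 6 vehicle livers) for the 10 genes (upper 3 rows) and for the other lists of the pathway. Each point is a gene (genes not reported here are not drawn), and names are printed for the largest changes called. The position of *Slc7a11* depends on the prior count, since its vehicle livers are at or near 0 reads. Serine synthesis genes and ATF4 targets lie mainly to the right of 0, whereas other folate and methionine cycle genes lie on both sides.

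Genes whose level over the 12 livers was among the most like that of each called member were found by Pearson correlation of log2 CPM among 10903 genes. The livers fall into separate vehicle and APAP sets, so these values are descriptions of likeness without a test. *Psat1* was most like *Dusp4* (r = 0.985), *Mafk* (0.984) and *Gclc* (0.980). *Mthfd2* was most like *Kdelr2* (r = 0.994), *Sertad1* (0.984) and *Mafk* (0.984), and *Mat2a* most like *Gsr* (0.974), *Kctd9* (0.966) and *Ccn1* (0.965). *Phgdh* was close to *Gm14150* (0.968) and *Gm3226* (0.966), *Psph* most like *Tmem185b* (0.975), *Nes* (0.961) and *Clic4* (0.959), and *Mthfd1l* most like *Ubl4a* (0.948), *1110038B12Rik* (0.945) and *Ybx3* (0.942). Of the falling members, *Shmt1* was most like *BC024386* (0.984), *Rnf181* (0.983) and *Nectin3* (0.982), and *Shmt2* most like *Eif4ebp2* (0.961), *Sbk1* (0.950) and *Tmem260* (0.945). After the group means were taken out, the correlation was 0.919 for *Mthfd2* and *Kdelr2*, 0.925 for *Shmt1* and *BC024386* and 0.655 for *Psat1* and *Dusp4*. These leading genes were picked on the same 12 livers, so the values are not a separate check of the likeness.

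Markers of hepatocyte zones moved beside these changes. The marker counts are to be read against 14% of all genes called higher and 11.7% called lower over both labels. Of 8 pericentral markers, 7 were lower over both labels, among them *Glul* (-2.25), which marks the hepatocytes next to the central vein, and *Cyp2e1* (-1.06), the main enzyme that activates APAP, and their summed level lay between 9509 and 11075 CPM in vehicle livers and between 3831 and 6321 CPM in APAP livers. Of 8 periportal markers 3 were lower, and the sums were 10532 to 19013 CPM with vehicle and 10348 to 12253 CPM after APAP. The part of this shift in the decrease of *Shmt1* and *Shmt2* was not tested. Of 5 neutrophil markers tested 1 was higher over both labels, all 5 had an unadjusted p under 0.05, and their median log2 change was 2.79. Their sums were 1.20 to 18.0 CPM in vehicle livers and 1.10 to 123 CPM in APAP livers, and so overlapped. Of 5 cholangiocyte markers 2 were higher, and the sums did not overlap, at 12.0 to 26.3 CPM with vehicle and 27.8 to 73.8 CPM after APAP. Of 6 proliferation markers 1 was higher and 1 lower, 4 had a positive log2 change and the median was 0.052. The median was 0.895 in WT (5 tested) and -1.16 under the KO label (6 tested). The sums of these markers, which follow the most abundant ones, did not overlap, at 26.0 to 51.6 CPM with vehicle and 8.43 to 16.8 CPM after APAP. Of 7 Kupffer cell markers 1 was higher, of 6 sinusoidal endothelial markers 2 were higher, and of 6 stellate cell markers 1 was lower. The Kupffer and stellate cell counts were near the shares over all genes. Among 5 erythroid, 5 monocyte and 7 lymphocyte markers tested, edgeR and DESeq2 each called 0, and unadjusted p-values were under 0.05 in 0, 1 and 0 of them. Their part in the members' changes was not tested.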

How the data were processed

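RNA-seq of 12 livers, 3 in each group, was used. Poly-A libraries were stranded and paired-end. The submitters' processing notes name FastQC 0.11.7, Trimmomatic 0.38, HISAT2 2.1.0, Bowtie2 2.3.4.1 and StringTie 2.1.3b with the builds mm10 and GRCm38. How reads were counted, and whether by strand, is not given in the sources used here. Read counts per gene, as the authors deposited them, are whole and not normalized. The TPM values deposited by the authors are scaled for length and depth and were used for levels between genes. The FPKM values deposited by the authors were not used. Of the columns of single samples, 0 were left unassigned.

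Counts were filtered with filterByExpr, scaled by TMM and tested across the whole table in edgeR 4.0.16 by quasi-likelihood (R 4.3.3, glmQLFit as installed), with Benjamini-Hochberg adjustment and a threshold of 0.05. Fits used only the 6 livers compared, or all 12 with genotype label and treatment, with or without their product. Each SE of an edgeR log2 change was derived from that change and its test statistic, and each 95% interval from the SE and the p-value. The interval of summed reads is an exact binomial one. Libraries are separate livers, with 49737950 to 69566079 reads each, and a count of 0 allows up to 3 reads. Alternatives were DESeq2 1.42.0 (size factors and Wald test), no filter, at least 10 counts in every library, edgeR's newer method, a replicate block, all 12 livers in one fit, limma 3.58.1 on the study's scale (log2 TPM, quantile-normalized, with a pseudocount of 1 or 0.1), and each liver left out. The pipeline was tested on simulated data.

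The members, lists and tests were chosen with earlier results of these data known. Named were all members, *Gna12*, *Atf4*, from each other list up to 6 genes with the smallest unadjusted p among those called over both labels, and 3 genes by likeness per called member (mean log2 CPM of at least 1). A few marker genes and any gene outside these rules were picked once values were known. Gene spans and promoters come from RefSeq (GRCm38.p6). A few genes that these rules select are not reported here.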

Additional observations from a re-analysis of the deposited data

How the results depend on the processing

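No member changed direction in the 3 comparisons of APAP with vehicle under any alternative tried. The deposited TPM, without quantile normalization, were not among these alternatives. There the means under the KO label were higher after APAP for *Mat1a* (2299 to 2373) and *Gnmt* (1900 to 1969), with overlapping groups. The counts over both labels (6 higher, 2 lower) were 5 and 2 with at least 10 counts in every library, where *Phgdh* was not tested, and 6 and 2 otherwise. In WT, 3 higher and 0 lower became 6 and 2 with DESeq2's Wald test and 5 and 2 with all 12 livers in one fit. The lower count under the KO label went from 1 to 2 with DESeq2's Wald test (*Shmt2*). Leaving out 1 liver gave 1 to 6 higher members in WT and 5 or 6 under the KO label. Replicate numbers did not pair the livers (12 pairs, correlations of deviations from -0.42 to 0.027, 0 over 0.1). With the replicate block 1 member passed in WT (*Psat1*, with *Phgdh* at adjusted p = 0.135 and *Mthfd2* at 0.0656), and no other call of a member changed. On log2(TPM + 1), which understates low genes, the log2 changes over both labels were 1.01 (*Phgdh*), 2.53 (*Mthfd2*) and 0.87 (*Mthfd1l*), all called, and *Mthfd1l* missed the threshold under the KO label (adjusted p = 0.0509). Of all genes in WT, 255 were higher and 67 lower, against 877 and 536 with DESeq2, 968 and 555 with all 12 livers, 55 and 1 with the block, and 41 to 316 and 0 to 126 with 1 liver left out. For the KO label, 2034 and 1504 became 1405 and 844 with all 12 livers, and 1261 to 1967 and 734 to 1401 with 1 liver left out. Genes called between labels numbered 5 after APAP and 4 with vehicle, against 29 and 137 with DESeq2, and the interaction called 0 by edgeR (848 at an unadjusted p under 0.05) and 9 by DESeq2. The number of members called was 0 in the comparisons of labels and in the interaction under every alternative. Depth limits *Phgdh*, whose vehicle counts of 0 to 12 lie near the limit of 3 reads.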
